A study of Mus musculus with 8 samples.

Results

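The resident Kupffer cell identity genes were 10 genes, Clec4f, Vsig4, Timd4, Cd5l, Marco, Cd163, Folr2, Csf1r, Slc40a1 and Spic, out of 19938 genes measured in the liver of ovariectomized (OVX) mice. They were chosen by symbol, as the rows of the deposited value table that the platform annotation gives to that gene alone, and each of the 10 had 1 such row. Whole liver RNA of 8 OVX mice was hybridised, 1 array per mouse, to the Affymetrix Mouse Gene 1.0 ST platform, which carries probes along the exons of each transcript. Of these females, 4 were fed HFD+WBM, a high fat diet (HFD) with added white button mushroom (WBM, Agaricus bisporus) powder and less corn starch. The other 4 females were fed with HFD alone, given the same weight of food as the HFD+WBM mice. All 8 were of the strain labelled C57B1/6J, were ovariectomized at 7 weeks of age, began the diets 1 week after surgery and stayed on them for 3 months, so that ovariectomy and the high fat diet were common to both groups. Each diet group of the study held 8 mice, 4 of which are on arrays, and sham-operated mice were not analysed here.

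Kupffer cells are the resident macrophages of the liver. They line the sinusoids, where they take up microbes, dying cells and old red blood cells from portal and arterial blood, and they recycle the iron of the red cells. In mice they are seeded before birth, renew themselves in place, and depend on signals from neighbouring endothelial, stellate and liver parenchymal cells. Their identity is read from a set of surface receptors, a few secreted proteins and the transcription factors that maintain them, and in fatty liver disease resident cells can be lost and replaced by macrophages that come from blood monocytes.

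The deposited values are log2 expression values, with a median over all rows of 7.11 to 7.19 on the HFD+WBM arrays and 7.04 to 7.22 on the HFD arrays. HFD replicate 3 stood apart, since its differences from the average of the remaining arrays had an SD over genes of 0.68, while this SD was 0.38 to 0.50 for each other mouse. The count of lower genes is therefore also given without it. The diets were compared with limma over all 19938 genes, and a gene was called lower or higher at p under 0.05 before adjustment, the threshold of the study, which was used together with a change of at least 2-fold. Differences are HFD+WBM minus HFD on the log2 scale, and the hepatocyte plasma protein genes Alb (14.10), Ttr (14.04) and Ahsg (14.07) were bright, as the liver label requires (mean log2 values over the 8 arrays).

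With HFD+WBM, 7 of the 10 Kupffer cell identity genes were lower in the liver and none was higher. Over all genes tested, 6.9% were lower and 4.85% higher at the same threshold. The 7 were Clec4f, Vsig4, Timd4, Cd5l, Folr2, Csf1r and Spic, with falls of 1.44-fold to 1.83-fold, and Marco, Cd163 and Slc40a1 did not pass. All 10 estimates were below 0, against 49.3% of all genes. The median log2 difference of the 10 genes was -0.63 and that of all genes was 0.01, with 3.32% of all genes at or below -0.63. These are values of whole liver RNA, in which fewer Kupffer cells and less RNA of these genes per cell cannot be told apart. None of the 10 passed with a 2-fold change, which 0.497% of all genes did in the lower direction, and none had an adjusted p under 0.05 from limma (0.37 was the smallest of the 10, and 0% of all genes passed). When the prior variance was allowed to follow the signal level, 139 genes passed the adjusted threshold, among them Vsig4 (limma adjusted p = 0.033) and Csf1r (limma adjusted p = 0.044). Without HFD replicate 3, 6 of the 10 were lower (Spic did not pass) and the share of all genes was 6.42%.

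**Figure D1:**
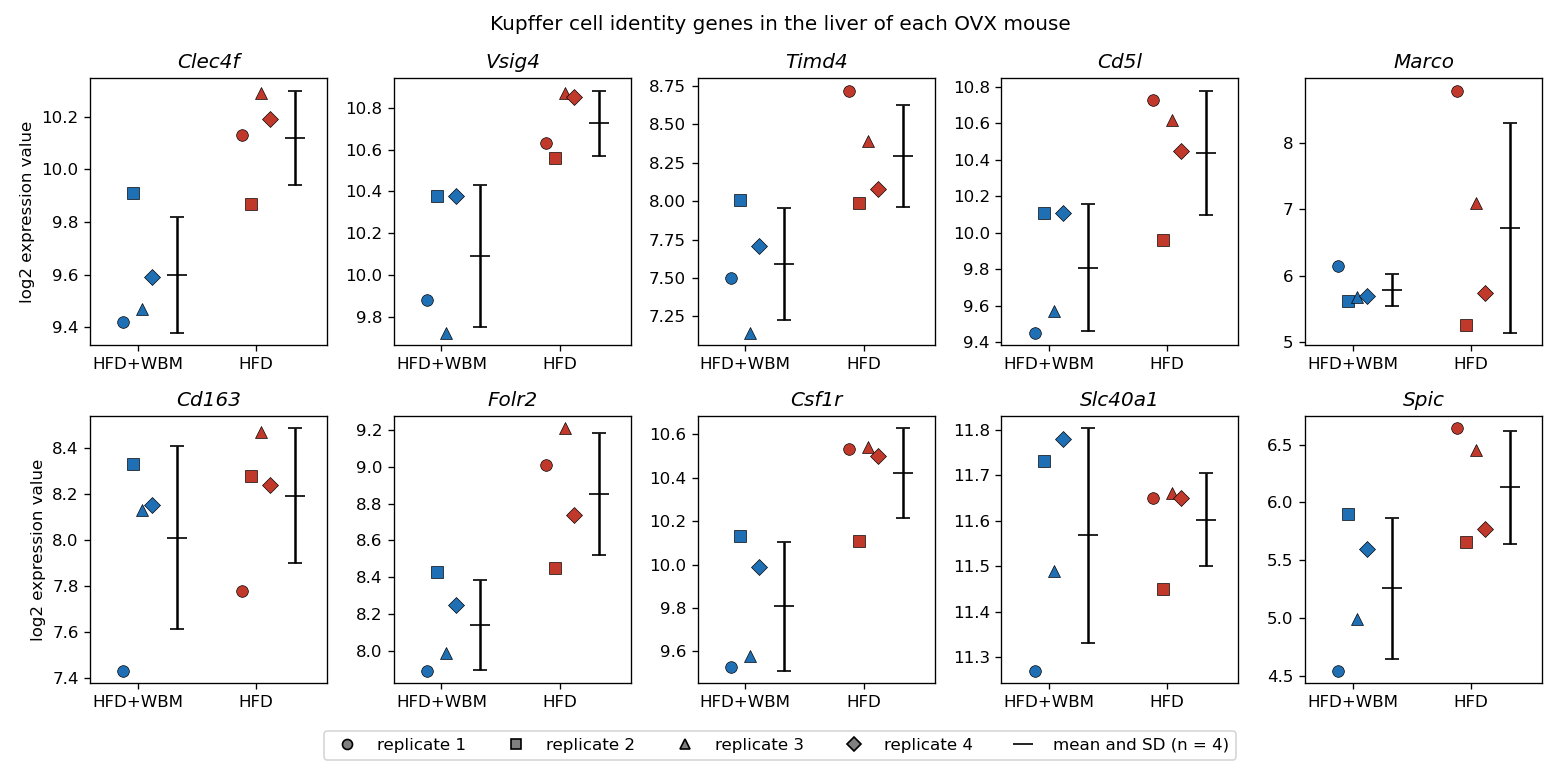
Log2 expression value of each Kupffer cell identity gene in each OVX mouse, 1 panel per gene with its own axis, HFD+WBM in blue on the left and HFD in red on the right, with a marker shape per replicate number, and a mean with its SD (4 mice) next to them. The diets do not overlap for Vsig4 and Folr2, and for Clec4f, Timd4 and Csf1r only replicates numbered 2 meet.

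Clec4f encodes a C-type lectin of the Kupffer cell surface that binds galactose-bearing sugars, and in mouse it is the marker held to be most restricted to these cells. Its log2 values were 9.42, 9.91, 9.47 and 9.59 in HFD+WBM replicates 1 to 4, against 10.13, 9.87, 10.29 and 10.19 in HFD replicates 1 to 4. Only HFD+WBM replicate 2 and HFD replicate 2 overlapped, narrowly. The mean was 9.60 ± 0.22 with HFD+WBM and 10.12 ± 0.18 with HFD (SD, n = 4 each), 1.44-fold lower (log2 difference -0.52, standard error 0.17, limma p = 0.011, exact permutation p = 0.057, two-sided).

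Vsig4 encodes CRIg, a complement receptor through which Kupffer cells capture opsonized particles from the blood. It measured 9.88, 10.38, 9.72 and 10.38 in the HFD+WBM mice and 10.63, 10.56, 10.87 and 10.85 in the HFD mice (log2 values). Every HFD+WBM mouse lay below every HFD mouse, as for 5.02% of all genes (the reverse held for 3.21%). The fall was 1.56-fold (log2 difference -0.64, standard error 0.19, limma p = 0.0083), with an exact permutation p of 0.029, the smallest that 4 mice against 4 can give.

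Timd4 encodes TIM-4, a receptor for phosphatidylserine on dying cells that marks resident rather than newly arrived macrophages. Its log2 values were 7.50, 8.01, 7.14 and 7.71 with HFD+WBM and 8.72, 7.99, 8.39 and 8.08 with HFD. The groups met at replicate 2 of each diet alone. Timd4 was 1.63-fold lower with HFD+WBM (log2 difference -0.70, standard error 0.23, limma p = 0.013, exact permutation p = 0.057).

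Folr2 encodes folate receptor beta, found on resident tissue macrophages. It was 7.89, 8.43, 7.99 and 8.25 in the HFD+WBM mice, against 9.01, 8.45, 9.21 and 8.74 in the HFD mice (log2 values). The highest HFD+WBM mouse and the lowest HFD mouse were only 0.02 apart, and the groups did not overlap. Folr2 was 1.64-fold lower (log2 difference -0.71, standard error 0.20, limma p = 0.0061, the smallest p of the 10 genes, exact permutation p = 0.029).

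Cd5l encodes a secreted protein of tissue macrophages, also called AIM, which binds IgM and is a target of LXR. Its log2 values were 9.45, 10.11, 9.57 and 10.11 with HFD+WBM and 10.73, 9.96, 10.62 and 10.45 with HFD. HFD replicate 2 lay below HFD+WBM replicates 2 and 4, and the other 3 HFD mice lay above all HFD+WBM mice. The difference was -0.63 (log2, standard error 0.23, limma p = 0.021, exact permutation p = 0.086), and Cd5l did not pass when HFD+WBM replicate 1, HFD+WBM replicate 3 or HFD replicate 1 was left out (limma p = 0.057 to 0.064).

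Csf1r encodes the receptor for CSF1 and IL-34, on which Kupffer cells depend for survival. It measured 9.53, 10.13, 9.58 and 9.99 in the HFD+WBM mice and 10.53, 10.11, 10.54 and 10.50 in the HFD mice (log2 values). HFD replicate 2 stood below the other 3 HFD mice and just below HFD+WBM replicate 2. The mean was 9.81 ± 0.30 with HFD+WBM and 10.42 ± 0.21 with HFD (SD, n = 4 each), a log2 difference of -0.61 (standard error 0.19, limma p = 0.0094, exact permutation p = 0.057). Of its ligands, Csf1 had a log2 difference of -0.12 (standard error 0.21) and Il34 one of 0.31 (standard error 0.17), and neither passed.

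Spic encodes Spi-C, a transcription factor related to PU.1 that mouse macrophages need for red cell and iron recycling. Its log2 values were 4.54, 5.90, 4.99 and 5.60 with HFD+WBM and 6.64, 5.66, 6.45 and 5.77 with HFD. HFD+WBM replicate 2 lay above HFD replicates 2 and 4. The estimate was the largest of those that passed (1.83-fold lower, log2 difference -0.87, standard error 0.33, limma p = 0.027, exact permutation p = 0.11), and the row was dim. Its mean over the 8 arrays, 5.69, lay below 7.16, the 95th percentile of the means of 1027 olfactory receptor genes, which liver does not use and which serve as a guide to the level of a gene that is not expressed. The difference was -0.38 with an offset of 64 before the log.

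The scavenger receptors Marco and Cd163 did not pass. Marco, a collagen-like receptor for bacteria and particles, measured 6.15, 5.62, 5.68 and 5.69 in the HFD+WBM mice, against 8.79, 5.26, 7.09 and 5.74 in the HFD mice (log2 values). It was high in HFD replicates 1 and 3 alone, and of the other 2 HFD mice 1 lay within and 1 below the range of the HFD+WBM mice, so that the SD was 0.24 with HFD+WBM and 1.58 with HFD. The log2 difference of -0.94 (95% interval -2.39 to 0.51, exact permutation p = 0.34) became -0.25 when HFD replicate 1 was left out. It became -1.42, and passed, when HFD replicate 2 was left out, and the row was dim, with a mean over the 8 arrays of 6.25. Cd163, the receptor for haptoglobin bound to hemoglobin, measured 7.43, 8.33, 8.13 and 8.15 with HFD+WBM and 7.78, 8.28, 8.47 and 8.24 with HFD. In both diets replicate 1 was the lowest, and the groups overlapped over most of their range. Its log2 difference was -0.18 (95% interval -0.70 to 0.33, exact permutation p = 0.51), and that of Hp, the haptoglobin gene, was -0.04 (standard error 0.15).

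Slc40a1 encodes ferroportin, the exporter through which macrophages, and other liver cells, release iron. Its log2 values were 11.27, 11.73, 11.49 and 11.78 in the HFD+WBM mice and 11.65, 11.45, 11.66 and 11.65 in the HFD mice. HFD+WBM mice held both the lowest and the highest values. The log2 difference was -0.04 (95% interval -0.39 to 0.32, exact permutation p = 0.83), an interval that leaves out falls as large as the median of the 10 genes. Hamp encodes hepcidin, the hormone that binds ferroportin and removes it from the cell surface, and has a near-identical copy in mouse. Its log2 difference was 0.15 (standard error 0.20).

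**Figure D2:**
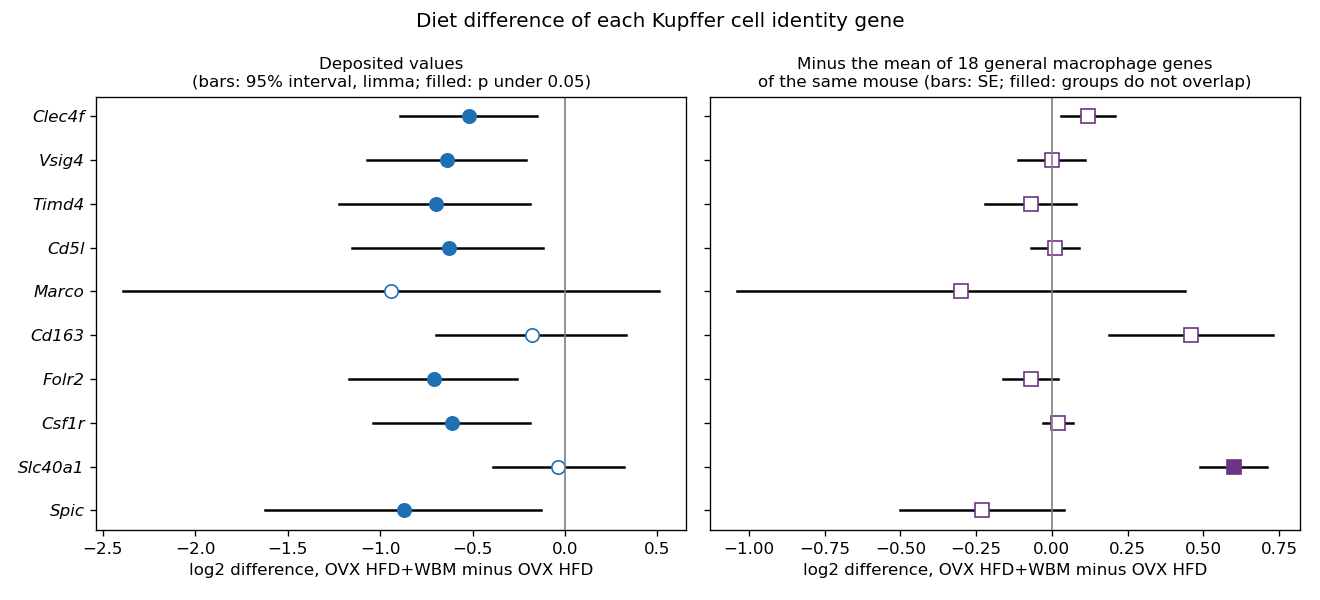
Log2 difference between the diets, OVX HFD+WBM minus OVX HFD (4 mice each), of each Kupffer cell identity gene. Left, deposited values with the 95% interval of limma, where the 7 filled points have p under 0.05 before adjustment. Right, the same after subtracting the mean of 18 general macrophage genes of the same mouse, with the standard error of the difference of means, where 6 genes lie between -0.07 and 0.12 and Slc40a1, at 0.60, is the filled point with groups that do not overlap.

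Most of the 10 genes varied together from mouse to mouse. Their mean was 8.30, 8.86, 8.38 and 8.73 in HFD+WBM replicates 1 to 4, and 9.46, 8.76, 9.36 and 9.02 in HFD replicates 1 to 4 (log2). HFD replicate 2 lay between HFD+WBM replicates 2 and 4, and was the lowest HFD mouse for 9 of the 10 genes. HFD+WBM replicate 1 had the lowest value of all 8 mice for 7 of the 10 genes. When either mouse numbered replicate 2 was left out, the groups did not overlap for 6 of the 10 genes. With all mice, or without any other single mouse, the groups did not overlap for 2 of the 10 (Vsig4 and Folr2). The rise was bound to follow, since these are mice at which the groups met. The HFD+WBM values lay below for 7.09% of all genes with HFD+WBM replicate 2 left out, for 7.78% with HFD replicate 2 left out, and for 5.02% with all mice. Pearson's r of the deviations from the diet means, which leave out the diet difference, had a median of 0.74 over the 45 pairs of genes (8 mice, a description of arrays that share their normalization). It was highest between Cd5l and Csf1r (0.96) and lowest between Marco and Cd163 (-0.51). With the mean of the other 9 genes, r was 0.95 for Cd5l, 0.94 for Folr2 and 0.93 for Spic, against 0.32 for Marco and 0.10 for Cd163. Slc40a1 had an r of 0.77, so that it varied with the other genes within a diet while its diet means differed by -0.04.

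**Figure D3:**
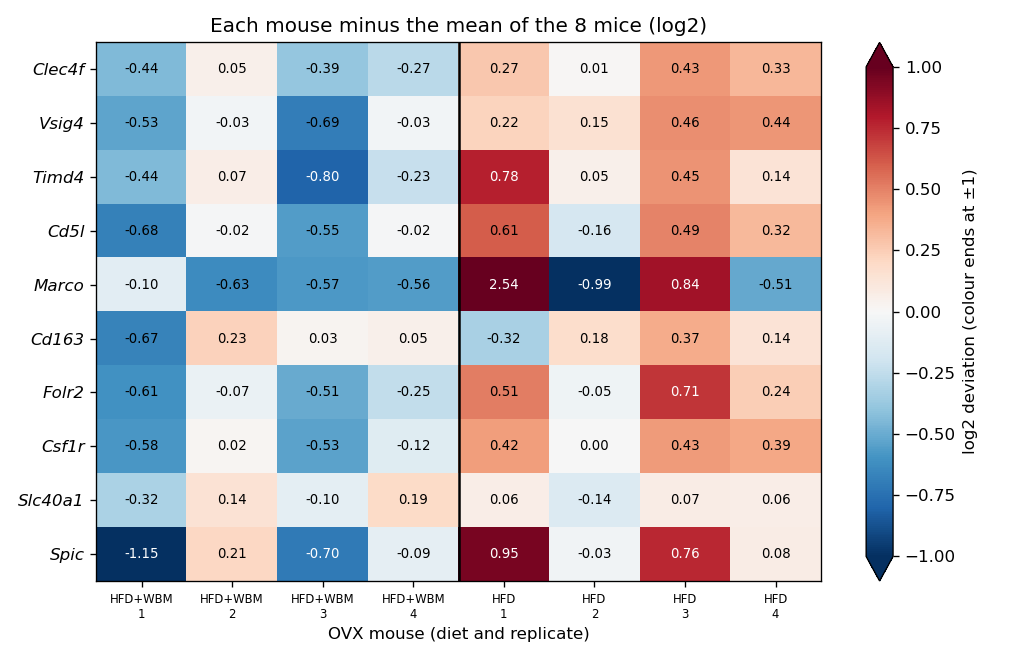
Deviation of each mouse from the mean of the 8 mice (log2), for each Kupffer cell identity gene, with HFD+WBM mice in the 4 columns on the left and HFD mice in the 4 on the right. HFD+WBM replicates 1 and 3 are low and HFD replicates 1, 3 and 4 are high for most genes, while replicate 2 of each diet lies near the mean of all mice, and Marco and Cd163 follow other patterns.

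General macrophage genes, which Kupffer cells share with other macrophages, were also lower. Of 18 such genes, 16 were lower and none higher (median log2 difference -0.65, against -0.63 for the 10 identity genes and 0.01 for all genes). Their mean level was 8.42 to 8.88 in the HFD+WBM mice and 8.89 to 9.48 in the HFD mice. C1qc, a subunit of complement C1q, was 1.74-fold lower, Cd68, a lysosomal protein of macrophages, 1.68-fold, and Ctss, the protease cathepsin S, 1.69-fold, each lower in every HFD+WBM mouse (limma adjusted p = 0.36 to 0.37). To set each identity gene against the macrophage signal of its own mouse, the mean of these 18 genes was subtracted, a comparison chosen after the values were seen. On this scale a gene without a diet difference is higher with HFD+WBM by 0.64, and 1 of the 10 identity genes, against 27.8% of all genes, lay higher in every HFD+WBM mouse (0.0602% of all genes and none of the 10 lay lower). Csf1r was 1.15 ± 0.08 with HFD+WBM and 1.13 ± 0.07 with HFD (SD, n = 4 each, log2 relative to the 18 genes). Clec4f, Vsig4, Timd4, Cd5l and Folr2 differed by -0.07 to 0.12 (standard errors 0.08 to 0.15), with overlapping groups (exact permutation p = 0.31 to 1). The SDs of these genes within a diet were 0.09 to 0.25. Differences near 0 on this scale were bound to follow, since these genes fell about as much as the 18 subtracted genes, and they are not separate support. Spic differed by -0.23 and Marco by -0.30, with larger SDs (0.41 and 0.34 for Spic and 0.42 and 1.41 for Marco, HFD+WBM and HFD). Cd163 was higher by 0.46 with overlapping groups (exact permutation p = 0.17). Slc40a1 was 2.91 ± 0.13 with HFD+WBM and 2.31 ± 0.17 with HFD (SD, n = 4 each), higher in every HFD+WBM mouse (exact permutation p = 0.029, the smallest possible, 1 of 10 such tests, and p = 0.057 without HFD+WBM replicate 3), a difference of 0.60 that is close to that of a gene without a diet difference.

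Of 8 other genes known from mouse Kupffer cells, 3 were lower and none higher (median log2 difference -0.36). They were Slc16a9, a monocarboxylate transporter gene (1.62-fold), Il18bp, which encodes the binding protein of interleukin 18 (1.47-fold), and C6, a terminal complement component (1.53-fold). The count fell to 1 without HFD+WBM replicate 3 or without HFD replicate 1. Slc16a9 is named by 2 rows, and the list held 2 lower genes when the rows of a gene were averaged. The mean of Slc16a9 over the 8 arrays, 6.78, lay below the olfactory receptor guide of 7.16. The 5 that did not pass lay on both sides of 0, with log2 differences of -0.37 for Clec1b, a lectin gene, -0.34 for Sdc3, a syndecan gene, -0.26 for Fcna, the ficolin A gene, 0.04 for Hpgd, which encodes a prostaglandin dehydrogenase, and 0.13 for Kcna2, a potassium channel gene (standard errors 0.16 to 0.20). Of 10 transcriptional regulators, 1 was lower, Irf8, a factor of the monocyte and macrophage lineage (1.52-fold, limma adjusted p = 0.42). It did not pass without HFD+WBM replicate 2, HFD+WBM replicate 3, HFD replicate 3 or HFD replicate 4, and its mean over the 8 arrays, 6.72, lay below the olfactory receptor guide of 7.16. The next smallest p-values were those of Tfec (log2 difference -0.59, standard error 0.28), a relative of MITF, and Id3 (-0.45, standard error 0.24), which mouse Kupffer cells need for their development. Nr1h3, which encodes LXR alpha and is needed by Kupffer cells but is also made by hepatocytes, had a log2 difference of -0.20 (standard error 0.13). Spi1, which encodes PU.1, had one of -0.21 (standard error 0.28). The means of Tfec (5.79) and Spi1 (6.04) over the 8 arrays also lay below the guide of 7.16. Maf, which encodes a factor of resident macrophages, and Smad4, which encodes the shared partner of TGF-beta and BMP signals, had estimates above 0, of 0.24 (standard error 0.16) and 0.08 (standard error 0.15), so that 8 of the 10 regulators had estimates below 0. Other receptors and bridging proteins for dying cells gave 1 lower gene of 9, Axl, a receptor kinase that Kupffer cells carry. Axl was 8.46 ± 0.21 with HFD+WBM and 9.10 ± 0.16 with HFD (SD, n = 4 each, a 1.55-fold difference without overlap, limma adjusted p = 0.37). Without HFD replicate 1 the list held 4 lower genes and 1 higher, and it held 2 lower genes without HFD+WBM replicate 1, HFD+WBM replicate 4 or HFD replicate 2. The Axl relative Mertk had a log2 difference of 0.03 (standard error 0.19), and Gas6, which bridges both receptors to dying cells, one of -0.51 (standard error 0.23). Of 7 genes of heme and iron handling, Hmox1, the heme oxygenase gene, had values below those of all HFD mice in every HFD+WBM mouse (log2 difference -0.58, standard error 0.18). Bach1, which encodes a repressor of Hmox1 that heme inactivates, lay the other way, at 9.40 ± 0.09 with HFD+WBM and 9.07 ± 0.27 with HFD (SD, n = 4 each), above all HFD mice in every HFD+WBM mouse, but did not pass in limma (log2 difference 0.33, standard error 0.17, exact permutation p = 0.029). The list of 7 genes held 1 higher gene without HFD replicate 4, after quantile normalization and with an offset of 64 before the log. It also held 1 with a signal-dependent prior variance and among the brighter 50% of genes. The ferritin genes Fth1 and Ftl1 had log2 differences of -0.02 and -0.05. These lists were fixed with earlier results of these data known, and Nr1h3, Rbpj, Smad4, Zeb2 and the ferritin genes are also used by other liver cells.

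**Figure D4:**
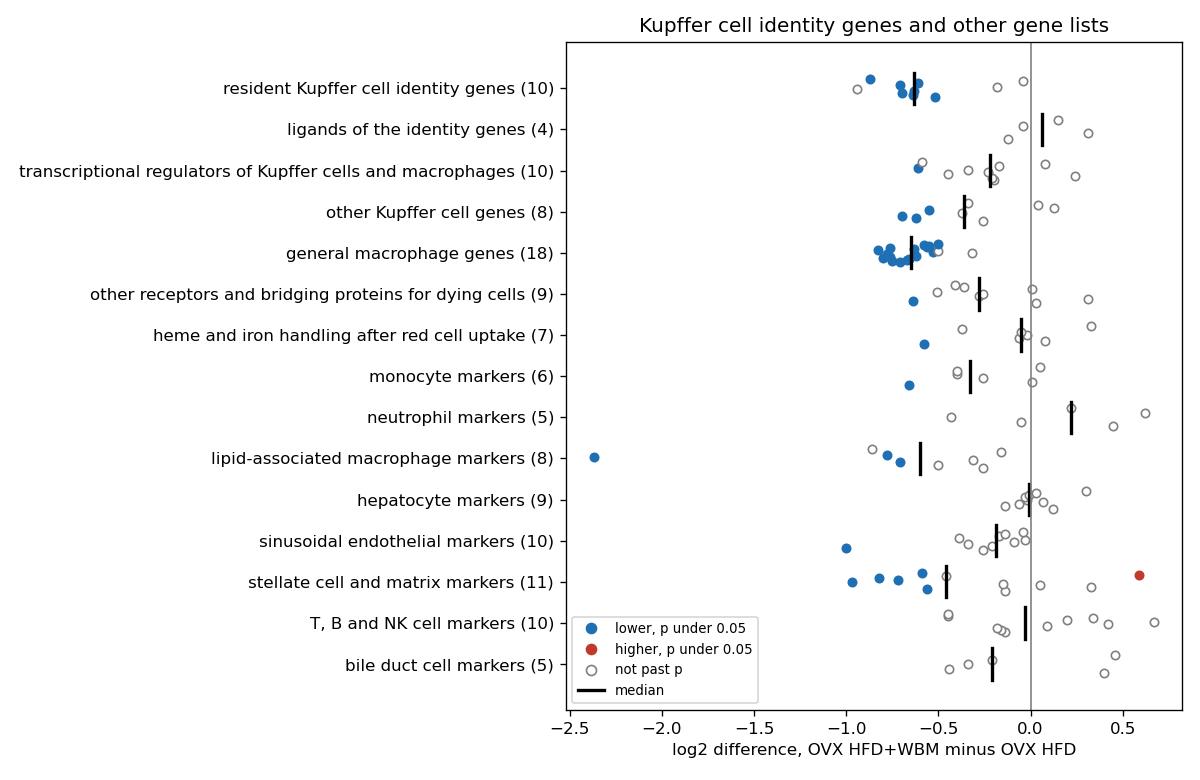
Log2 difference between the diets, OVX HFD+WBM minus OVX HFD (4 mice each), of every measured gene of each list, with the number of genes in brackets and a bar at the median. Blue points were lower and red points higher at p under 0.05 before adjustment. The identity genes and the general macrophage genes have medians of -0.63 and -0.65, and the hepatocyte markers one of -0.01.

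Markers of other cells were read beside these values. None of 9 hepatocyte markers passed (median log2 difference -0.01), and their mean level was 13.36 to 13.49 in the HFD+WBM mice and 13.33 to 13.49 in the HFD mice. Of 10 sinusoidal endothelial markers, 1 was lower, Lyve1, a hyaluronan receptor that some macrophages also carry (2.00-fold between the means), and 2 were lower without HFD+WBM replicate 4 or HFD replicate 1. For Lyve1 the diets did not overlap, but the highest HFD+WBM mouse (7.71) and the lowest HFD mouse (7.75) were only 0.04 apart (log2 values). All 10 estimates of this list were below 0 as well (median -0.19), and its mean level was 9.03 to 9.50 with HFD+WBM and 9.20 to 9.82 with HFD. Of 6 monocyte markers, Ccr2, the receptor that draws monocytes into tissue, was 1.58-fold lower (limma adjusted p = 0.40), and the mean level of the list was 5.38 to 6.03 with HFD+WBM and 5.64 to 6.22 with HFD. No monocyte marker passed without HFD+WBM replicate 1, HFD+WBM replicate 3, HFD replicate 1 or HFD replicate 4, and 2 did without HFD replicate 2. All 6 monocyte markers had means over the 8 arrays below the olfactory receptor guide of 7.16 (Ccr2 5.93). Of 8 markers of lipid-associated macrophages, 3 were lower, Cd9, a tetraspanin (1.63-fold), Lpl, lipoprotein lipase (1.72-fold), and Fabp5, a fatty acid-binding protein (5.17-fold, with SDs of 1.17 with HFD+WBM and 1.99 with HFD), and all 8 estimates were below 0 (median -0.60). The mean level of these 8 genes was 6.11 to 6.63 with HFD+WBM and 6.54 to 7.80 with HFD. Trem2, the defining receptor of those macrophages, had a log2 difference of -0.26 (standard error 0.20). Its mean over the 8 arrays, 7.14, lay just below the olfactory receptor guide of 7.16. None of 5 neutrophil markers passed (mean level 6.64 to 6.76 with HFD+WBM and 5.95 to 6.83 with HFD), and none of 10 markers of T, B and NK cells (5.59 to 6.29 with HFD+WBM and 5.83 to 6.11 with HFD). Means above 7.27, the median of all genes, were held by 1 neutrophil marker, 2 lipid-associated markers and no T, B or NK cell marker. Most rows of these lists were dim, so that a missing call in them says little about those cells. The part of any of these cells in the values of the 10 identity genes was not tested.

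The promoters of the identity genes were searched for sites of factors that act in Kupffer cells, since 7 of the genes were lower together. RefSeq windows (GRCm38.p6) from 250 bases before to 50 bases after a start site were matched by symbol for 8 of the 10 genes. The array table names no genome build, and these positions are those of the RefSeq table. The motifs, searched on both strands, were GAGGAA and GAGGAAGT, which contains it (core of the site of PU.1 and Spi-C), the Maf recognition element, TGCTGA followed by GTCA (site of Maf and Bach1 factors), and AGGTCA repeated after a gap of 4 bases (the direct repeat bound by LXR). GAGGAA was found for 3 of the 8 genes, Vsig4, Cd5l and Marco, against 28.3% of 32851 windows in the table and 9 of 13 general macrophage genes with a window. A gene was counted if any of its windows held the motif. Genes such as Folr2 have several windows, so the counts of genes and the share of windows are unlike measures. None of the 8 held GAGGAAGT (3.2% of all windows), the Maf recognition element (0.155%) or the LXR repeat (0.0152%). The windows of Vsig4 and Cd5l, which hold GAGGAA, and of Clec4f and Timd4, which do not, are printed 5′ to 3′ on the strand of the gene to show a contrast among genes that were all lower, with GAGGAA or its reverse complement TTCCTC in capitals. They lie at chrX:96293389-96293688 (minus strand), chr3:87357631-87357930 (plus strand), chr6:83656067-83656366 (minus strand) and chr11:46810549-46810848 (plus strand).
Vsig4: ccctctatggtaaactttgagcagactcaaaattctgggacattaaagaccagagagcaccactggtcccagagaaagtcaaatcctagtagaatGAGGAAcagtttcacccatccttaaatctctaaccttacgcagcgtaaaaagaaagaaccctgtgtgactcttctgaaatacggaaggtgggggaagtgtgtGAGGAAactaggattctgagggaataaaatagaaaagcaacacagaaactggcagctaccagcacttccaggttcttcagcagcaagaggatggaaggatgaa
Cd5l: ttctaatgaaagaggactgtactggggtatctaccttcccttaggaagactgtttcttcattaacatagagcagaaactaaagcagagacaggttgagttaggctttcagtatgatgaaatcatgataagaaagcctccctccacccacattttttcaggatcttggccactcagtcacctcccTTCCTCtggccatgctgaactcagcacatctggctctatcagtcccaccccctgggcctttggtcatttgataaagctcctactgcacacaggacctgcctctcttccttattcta
Clec4f: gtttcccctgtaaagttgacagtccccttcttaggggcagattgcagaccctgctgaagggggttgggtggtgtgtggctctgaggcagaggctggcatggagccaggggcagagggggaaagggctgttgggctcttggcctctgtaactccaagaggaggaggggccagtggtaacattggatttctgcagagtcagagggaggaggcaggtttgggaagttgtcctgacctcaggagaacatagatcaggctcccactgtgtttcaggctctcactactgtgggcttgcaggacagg
Timd4: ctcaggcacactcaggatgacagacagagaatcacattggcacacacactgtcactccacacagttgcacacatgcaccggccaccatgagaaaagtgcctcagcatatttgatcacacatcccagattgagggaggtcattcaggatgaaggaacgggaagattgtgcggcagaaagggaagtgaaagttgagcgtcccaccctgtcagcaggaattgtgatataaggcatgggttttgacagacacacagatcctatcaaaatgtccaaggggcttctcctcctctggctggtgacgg
Vsig4 holds the core 2 times and Cd5l once, on the opposite strand. Lower values with HFD+WBM were measured for genes with the core (Vsig4 and Cd5l) and without it (Clec4f, Timd4, Folr2 and Spic).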

How the data were processed

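Liver arrays of 8 OVX mice (4 per diet) were used, with diet and replicate number read from the sample titles. The authors obtained 1 value per transcript-level probe set with IterPLIER, after background correction and normalization in Affymetrix Power Tools 1.8.6, and deposited log2 values for 28944 rows. Any offset used in taking the log, which probes were detected and which genome build was used could not be read from the sources. Low values therefore have no known floor, and precision is limited by the number of arrays.

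The platform annotation gave a single gene to 21789 rows, several to 1621 and none to 5534. Gene numbers linked 21698 of the single-gene rows to RefSeq names (GRCm38.p6), and 91 kept the name of the annotation. The brightest row by mean stood for each gene, giving 19938 genes. The diets were compared by lmFit and eBayes (limma 3.58.1, R 4.3.3) in a model that held diet alone, Benjamini-Hochberg adjustment ran over the 19938 genes, and the code was tested on simulated data. Two-sided exact permutation tests enumerated all 70 divisions of the mice, so that 0.029 is their smallest p. The olfactory receptor genes used as a guide to low signal are those with symbols starting with Olfr.

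The 10 genes, the other lists and the motifs were chosen with earlier results of these data known. Named genes are the 10, their ligands, up to 3 genes of each other list by smallest p, and the 5 genes most like the mean of the 10. Alb, Ttr, Ahsg, Fcna, Clec1b, Sdc3, Hpgd, Kcna2, Nr1h3, Spi1, Maf, Smad4, Mertk, Fth1, Ftl1, Trem2, Fcgr1 and Apob fall outside this rule and were picked after their values were seen. Some genes of the other lists are not reported here, and protein sequences of the 10 genes were not analysed here. The alternatives were centring of arrays on their median, quantile normalization, and offsets of 16 and 64 added before the log. Others were the brighter 50% of genes only, averaging the rows of a gene, a signal-dependent prior variance and array weights. An equal-variance t-test, a replicate block, omission of each mouse and a 1.5-fold threshold were also used.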

Additional observations from a re-analysis of the deposited data

Results flagged for a closer look

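Of 20 groups of 4 mice (10 genes by 2 diets), 3 held a mouse far from the other 3 by Dixon's test, where chance flags about 5% of groups. Marco stood high at 6.15 in HFD+WBM replicate 1, while the remaining HFD+WBM mice had 5.62 to 5.69 (log2 values). Csf1r stood low at 10.11 in HFD replicate 2, and the remaining HFD mice had 10.50 to 10.54. Slc40a1 stood low in the same mouse, at 11.45, and the remaining HFD mice had 11.65 to 11.66.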

How the results depend on the processing

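Clec4f, Vsig4, Timd4, Folr2 and Csf1r were lower with p under 0.05 under every setting that was run on the deposited scale, apart from the 1.5-fold threshold, which Clec4f (1.44-fold) missed. Of the 10 identity genes, 5 to 8 were lower when a mouse was left out, and 0 to 2 of them passed with a 2-fold change (Spic without HFD+WBM replicate 2, Marco and Spic without HFD replicate 2). Over all genes, 904 to 1366 were lower when a mouse was left out, and 545 were lower and 345 higher at the 1.5-fold threshold. Cd5l and Spic lost their call without HFD+WBM replicate 1, HFD+WBM replicate 3 or HFD replicate 1. Spic also lost it without HFD replicate 3, with array weights and by an equal-variance t-test. That t-test called 6 of the 10 genes lower, and 1528 genes lower and 1068 higher in all, none of them after Benjamini-Hochberg adjustment. Leaving out a mouse gave 11 to 17 lower general macrophage genes, 1 to 4 lower other Kupffer cell genes, 0 to 2 lower regulators, 0 to 2 lower monocyte markers, 2 to 3 lower lipid-associated macrophage markers and 2 to 5 lower stellate cell markers. The lists that held no call in the main fit were not fixed either. The ligands and the neutrophil, hepatocyte, bile duct, and T, B and NK cell markers each held 1 call without some single mice. Among neutrophil markers 1 was also lower after quantile normalization, and 1 was higher with an offset of 16 or 64. Marco passed with an offset of 64 (log2 difference -0.65) or without HFD replicate 2 (-1.42). Marco and Spic could not be fitted among the brighter 50% of genes. The smallest limma adjusted p of the 10 genes ranged from 0.033 to 0.57 over the settings. The number of all genes with an adjusted p under 0.05 was 139 with a signal-dependent prior variance, 80 with an offset of 64, 19 among the brighter 50% of genes, 2 with an offset of 16, 1 without HFD+WBM replicate 2, and 0 under the other settings.

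The sign of genes that did not pass moved. Slc40a1 had a log2 difference of 0.02 after quantile normalization and -0.11 to 0.07 with a mouse left out, and Cd163 one of -0.32 to 0.01 with a mouse left out. Relative to the general macrophage genes, leaving out a mouse gave -0.17 to 0.03 for Timd4, -0.03 to 0.07 for Cd5l, -0.65 to 0.34 for Marco and -0.01 to 0.06 for Csf1r. On that scale an offset of 16 gave -0.01 for Cd5l, and an offset of 64 gave -0.05 for Cd5l, -0.03 for Csf1r and 0.17 for Spic. Slc40a1 stayed higher on that scale, at 0.55 to 0.69 with a mouse left out, and its exact permutation p became 0.057 without HFD+WBM replicate 3. The cause was not tested.

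No pairing of the mice by replicate number was seen. Same-numbered mice of both diets deviated from their diet means with r of -0.12 to -0.02. Such values cannot exclude a pairing, which the labels do not give. With the replicate number as a block, 5 of the 10 genes were lower (Cd5l and Spic did not pass), and 1009 genes were lower and 748 higher, against 1375 lower and 966 higher without it.

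The detection limit of the arrays is unknown, and Marco and Spic lay below the 95th percentile of the olfactory receptor genes. The planned comparison of the protein sequences was not run.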

Other observations

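Of 11 markers of stellate cells and matrix, 5 were lower with HFD+WBM and 1 was higher (median log2 difference -0.46), and 2 were lower when HFD+WBM replicate 2, HFD+WBM replicate 3, HFD replicate 3 or HFD replicate 4 was left out. The equal-variance t-test called 2 lower and 2 higher. The mean level of the list was 8.04 to 8.44 with HFD+WBM and 8.33 to 8.88 with HFD. Col1a1 and Col1a2, the chains of type I collagen, were 1.96-fold and 1.64-fold lower, and Hand2, a transcription factor gene of stellate cells, was 1.51-fold higher without overlap of the diets (limma adjusted p = 0.37 to 0.38). None of 5 bile duct markers passed, with mean levels of 5.80 to 6.35 with HFD+WBM and 5.58 to 6.46 with HFD. Only 1 of these 5 had a mean over the 8 arrays above 7.27, the median of all genes.

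The 5 genes whose deviations from the diet means were most like the mean of the 10 Kupffer cell identity genes were Spag4, Ccny, Tspan4, Metap1 and Ugt2b34 (Pearson's r 0.98 to 0.99 over 8 mice, the highest of 9961 candidates). None of the 5 passed between the diets (log2 differences -0.18 to 0.19). Of the listed genes, Fcgr1, an Fc receptor of macrophages, had an r of 0.97, and Apob, an apolipoprotein gene of hepatocytes, one of 0.96, so that a high r in 8 mice was not limited to genes of macrophages.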
